A study of Mus musculus with 4 samples.

Results

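Hmx1, Hmx2, Hmx3, Mab21l1 and Mab21l2 belong to a pair of gene families with roles in the developing eye. The members were taken by name from the deposited expression table, 5 rows of 55426, and were followed in mouse retinal organoids at day 6 with and without doxycycline (Dox). They were selected on their FPKM values in this same contrast, so their levels and differences are given as a description, without a test. Such organoids are stem cell aggregates that form retinal progenitors in culture. All 4 libraries came from 1 line, labelled Rx:GFP Mettl3 KO, which also carries a Dox-inducible HA-METTL3. The METTL3 enzyme deposits N6-methyladenosine on RNA. The untreated group (2 libraries) received no Dox, and the Dox group (2 libraries) received 2 µg/ml for 6 days. Both groups were differentiated in GMEM with AGN at 0.1 µM, KSR at 5%, and NEAA, sodium pyruvate and β-ME at 1% each. EV, which stands in all sample titles (EV or EV+Dox), is not explained, so whether METTL3 was induced is not known from the labels. Nothing in the labels says that the replicates are separate cultures, so the spread between them may be technical.

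The HMX proteins are homeodomain transcription factors of the NK-like class. HMX1 is known from the nasal part of the retina, the lens, the cranial sensory ganglia and the branchial arches. HMX2 and HMX3, whose genes lie side by side, are known from the inner ear and the hypothalamus and are partly interchangeable there. MAB21L1 and MAB21L2 share a nucleotidyltransferase-like fold with the DNA sensor cGAS. Both genes are known from the optic vesicle and lens, and loss of either disturbs eye formation in mice and humans.

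The relation between the members is shown first, since reads can only be credited to the right member where the sequences differ. The most alike 60 bases of the 3 Hmx coding sequences lie in the homeobox, the part that encodes the DNA-binding domain. Positions at which the 3 genes are not all the same are in capitals, and each stretch is read 5′ to 3′ from the reference transcript.
Hmx1: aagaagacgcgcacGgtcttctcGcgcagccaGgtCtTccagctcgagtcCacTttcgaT
Hmx2: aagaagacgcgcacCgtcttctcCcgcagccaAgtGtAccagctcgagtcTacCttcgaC
Hmx3: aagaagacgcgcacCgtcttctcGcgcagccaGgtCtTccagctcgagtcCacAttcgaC

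Across this window 8 positions differ. Over all aligned coding bases, this window included, the genes are less alike. Hmx1 is 64.7% identical to Hmx2 and 67.5% to Hmx3, and Hmx2 is 67.3% identical to Hmx3. The longest run of identical bases is 39, between Hmx2 and Hmx3. Mab21l1 and Mab21l2 are closer relatives. Their coding sequences have the same length, 1077 bases without the stop codon, and 868 of these are identical (80.6%). The window below covers coding bases 164 to 283 and surrounds their longest identical run, with differing positions in capitals.
Mab21l1: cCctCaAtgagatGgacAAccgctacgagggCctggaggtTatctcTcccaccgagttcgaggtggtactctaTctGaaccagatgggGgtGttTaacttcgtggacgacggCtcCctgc
Mab21l2: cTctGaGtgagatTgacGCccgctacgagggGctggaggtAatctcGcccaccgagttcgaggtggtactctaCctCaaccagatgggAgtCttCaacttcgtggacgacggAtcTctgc

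Even here the run is 26 bases, far below the 150-base reads. No stretch of 75 bases of any member occurs in another member. Hmx2 and Hmx3 share no such stretch with any other annotated gene. The other 3 do, with genes that overlap them on the opposite strand: 6.67% of the 75-base stretches of Hmx1, 37.5% of those of Mab21l1 and 32.3% of those of Mab21l2. Whether the authors' counting used strand is not given in the sources used here, so part of these 3 values may belong to the overlapping gene.

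The Hmx genes were close to undetected without Dox. Hmx1 (ENSMUSG00000067438, chr5:35389108-35399730, plus strand) stood at 0.13 and 0.09 FPKM without Dox, and in the Dox libraries at 42.07 and 52.08 FPKM. FPKM are sequenced fragments scaled to transcript length and library depth, so levels can be compared between genes. The untreated values correspond to about 5 and 4 fragments if they came from the 1526-base transcript, and to 1 and 1 fragment if they came from the 435-base transcript. In bulk libraries fewer cells of a type and less RNA per cell cannot be told apart. The means were 0.11 ± 0.0283 and 47.1 ± 7.08 FPKM (SD, n = 2 each). Both untreated values lie under the level of 3 fragments on the shorter transcript, 0.475 FPKM, and against that level the Dox mean is at least 99.1-fold higher. On the log2(FPKM + 1) scale, where changes of low genes come out too small, the difference was 5.43 (SE 0.130). Tested genes are the 13931 that averaged 1 FPKM or more, a level that Hmx1 reached only through its Dox values.

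Hmx3 (ENSMUSG00000040148, chr7:131542867-131544925, plus strand) was lower than Hmx1 with Dox. It stood at 0.20 and 0.14 FPKM without Dox, about 8 and 6 fragments, and at 3.84 and 5.00 FPKM with Dox, about 149 and 199 fragments. For the 8 fragments the exact 95% Poisson interval is 3.45 to 15.8, and for the 149 it is 126 to 175, both for counting error only. The ratio of the means, 0.17 ± 0.0424 and 4.42 ± 0.820 FPKM (SD, n = 2 each), is 26.0. On the log2(FPKM + 1) scale the difference was 2.20 (SE 0.156).

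Hmx2 (ENSMUSG00000050100, chr7:131548773-131558014, plus strand) starts 3.85 kb beyond the end of Hmx3, in the same orientation. It stayed low in every library, at 0.14 and 0.11 FPKM without Dox and at 0.65 and 0.63 FPKM with Dox. With Dox this is about 59 and 59 fragments on its 3102-base transcript, or 27 and 27 on its 1546-base transcript. Its mean over the libraries, 0.383 FPKM, is under the minimum for the fit, so it was not tested. The Dox libraries nevertheless lay above the untreated ones, with a ratio of means of 5.12 and a difference of 0.54 on the log2(FPKM + 1) scale.

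With Dox, Hmx1 was the main member of its family by level. Hmx1 made up 90.4% and 90.2% of the summed Hmx FPKM with Dox. Without Dox no share is given, since both Hmx1 values lie under the level of 3 fragments on its shorter transcript. The sum was 0.47 and 0.34 FPKM without Dox and 46.56 and 57.71 FPKM with it. Hmx3 was 1.43 and 1.27 times as high as Hmx2 without Dox, at about 6 to 13 fragments on the longest transcripts. With Dox Hmx3 was 5.91 and 7.94 times as high.

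The Mab21l genes were already expressed without Dox. Mab21l1 (ENSMUSG00000056947, chr3:55782510-55785001, plus strand), a gene of a single exon, stood at 4.21 and 3.63 FPKM without Dox, and in the Dox libraries at 135.16 and 155.98 FPKM. These are about 307 and 285 fragments against 9679 and 11486. The groups lay far apart: the means were 3.92 ± 0.410 and 146 ± 14.7 FPKM (SD, n = 2 each), a ratio of 37.1, and the log2(FPKM + 1) difference was 4.90 (SE 0.104).

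Mab21l2 (ENSMUSG00000057777, chr3:86545581-86548629, minus strand) was the highest member without Dox. It stood at 12.46 and 11.49 FPKM there and at 68.78 and 81.68 FPKM with Dox. The SD were 0.686 and 9.12 FPKM (n = 2 each), the means had a ratio of 6.28, and the log2(FPKM + 1) difference was 2.55 (SE 0.103). The order of the pair was therefore opposite in the groups: Mab21l1 was 0.338 and 0.316 times Mab21l2 in the untreated libraries and 1.97 and 1.91 times Mab21l2 with Dox.

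**Figure D1:**
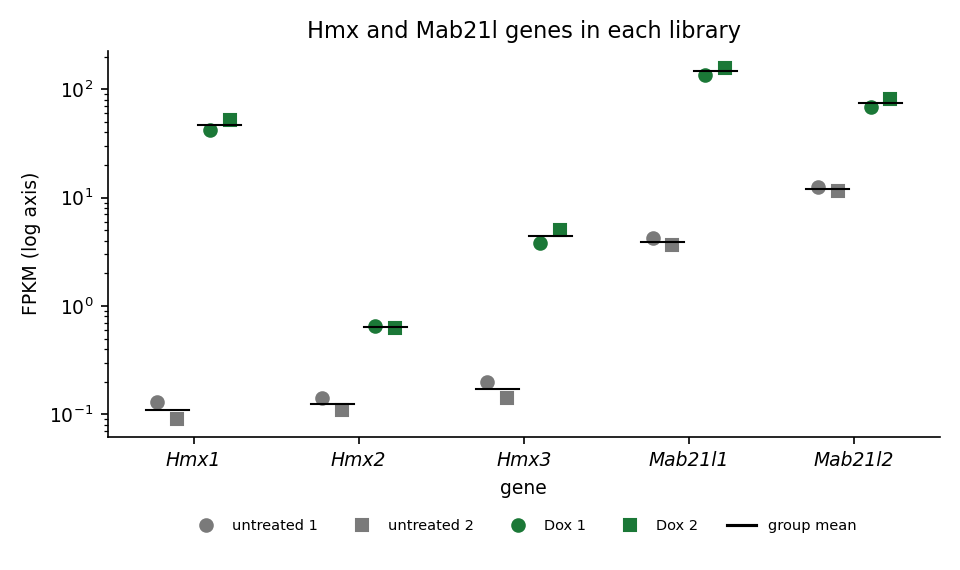
FPKM of the 5 genes (log axis) in the 2 untreated libraries (grey) and the 2 Dox libraries (green), with circles for replicate 1, squares for replicate 2 and lines for the group means. The groups do not overlap for any of the 5 genes, Mab21l2 is highest without Dox and Mab21l1 with Dox, and Hmx2 stays under 1 FPKM in every library.

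For all 5 genes the Dox values lay above the untreated ones without overlap, which was so for 26.5% of all tested genes. This lack of overlap restates the choice of the members. Of the 5 genes 4 reached the minimum level for the fit, Hmx1 and Hmx3 only through their Dox values. Calls of the members are therefore not counted. Of all tested genes 9.31% passed an adjusted p of 0.05 in limma, 4.44% with a higher and 4.87% with a lower value. With Dox the order of the levels was Mab21l1, Mab21l2, Hmx1, Hmx3 and Hmx2, and no neighbours in it overlapped. Without Dox the order was Mab21l2, Mab21l1, Hmx3, Hmx2 and Hmx1, and the 3 Hmx genes could not be ordered: Hmx3 and Hmx2 met at 0.14 FPKM, and the values of Hmx2 and Hmx1 overlapped.

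The replicates differed in the same sense for most members. Dox replicate 2 exceeded Dox replicate 1 for Hmx1 (1.24 times), Hmx3 (1.30 times), Mab21l1 (1.15 times) and Mab21l2 (1.19 times), and not for Hmx2 (0.97 times). Among all genes called higher, 71.7% were higher in Dox replicate 2, and among all tested genes 55.5%. Untreated replicate 1 exceeded replicate 2 for all 5 members, against 58.8% of the genes called higher and 51.6% of all tested genes. For the Hmx genes that order rests on few fragments. On the longest transcripts they were about 5 and 4 for Hmx1, 13 and 11 for Hmx2 and 8 and 6 for Hmx3. The shifts between replicates are small beside the differences between the groups.

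Checks on the libraries are as follows. Steps in the low values gave 31.8 to 34.9 M (1e6) fragments per library. The eGFP row, taken as the labelled reporter, was at 0.26 and 0.42 FPKM without Dox and at 333.52 and 361.13 FPKM with it. Mettl3 was at 40.33 and 37.98 FPKM without Dox and at 45.20 and 46.37 FPKM with it (log2 difference 0.22, adjusted p = 0.122 in limma), and the table does not separate the inducible copy from the knocked-out locus.

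The optic vesicle, the outpocketing of the forebrain that forms the retina, is where Hmx1 and both Mab21l genes are known to act, so factors of that structure were set beside them. Of 16 such genes 15 were tested, of which 13 rose with Dox and 1 fell, with a median log2 fold change of 3.5 beside -0.0042 over all tested genes. Many of these genes were known to change in these libraries before the list was written, so the list is not independent evidence. Rax, the eye-field homeobox gene behind the labelled reporter, rose from 0.970 ± 0.212 to 215 ± 19.0 FPKM (SD, n = 2 each), differing by 6.78 in log2 (limma, adjusted p = 2.93e-05). Tbx2, a T-box repressor of the dorsal retina, rose by 5.89 on the log2 scale (adjusted p = 6.96e-05 in limma). Six6, a homeobox gene of the eye field, stood at 0.01 FPKM in both untreated libraries and at 79.22 and 92.44 FPKM with Dox (adjusted p = 2.93e-05 in limma). Pax6, the eye and forebrain master gene, did not pass the test, with 123 ± 6.29 FPKM without Dox and 127 ± 5.58 FPKM with it (adjusted p = 0.796 in limma). Sox2, a neural progenitor factor with a log2 fold change of 0.54, and Otx2, a head and pigment epithelium factor with -0.36, lost their calls when any 1 library was left out.

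Hmx1 is known as a nasal factor of the retina, and in the chick eye its relatives set the graded EphA receptors, which guide axons along the naso-temporal axis. Of 12 genes of that axis 9 were tested, of which 2 rose and 4 fell, with a median log2 fold change of 0.054. Foxd1, a forkhead factor of the temporal retina, fell from 7.42 ± 0.912 to 1.22 ± 0.134 FPKM (SD, n = 2 each), differing by -1.92 in log2 (limma, adjusted p = 8.86e-04). Of the receptors, Epha3 fell from 11.97 and 12.60 to 1.49 and 1.18 FPKM, and Epha7 fell from 23.09 and 23.98 to 7.32 and 7.07 FPKM (adjusted p = 2.52e-04 and 3.27e-04 in limma). Epha4 did not pass, at 14.1 ± 0.184 and 14.8 ± 1.64 FPKM (adjusted p = 0.793 in limma). The ligand gene Efna5 was called higher (log2 fold change 0.59) and Efna2 lower (-0.47), and both lost the call when any 1 library was left out.

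The other NK-like homeobox genes, the wider class to which the Hmx genes belong, did not move as one. Of 44 genes 9 were tested, and 35 had a mean under 1 FPKM. Of the 9, 2 rose and 5 fell, with a median log2 fold change of -0.87. Msx2, a target of BMP signalling, rose from 4.13 ± 0.0919 to 22.6 ± 1.38 FPKM (SD, n = 2 each), and Vax2, a ventral optic cup factor, from 0.205 ± 0.120 to 8.07 ± 0.106 FPKM. Their log2 fold changes were 2.20 and 2.91 (adjusted p = 1.65e-04 and 2.07e-04 in limma). Of the 5 that fell, Emx2, a cortical patterning gene, fell from 77.0 ± 1.71 to 8.63 ± 3.36 FPKM, Dbx1, a gene of ventricular progenitors, from 17.2 ± 3.32 to 1.79 ± 0.431 FPKM, and the diencephalic gene Barhl2 from 5.81 ± 1.05 to 0.130 ± 0.0566 FPKM (adjusted p = 0.00116, 7.27e-04 and 6.12e-04 in limma). The other two were Barhl1 (log2 difference -2.45) and Emx1 (-0.87, lost without untreated replicate 2 or either Dox library).

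The remaining genes of the Mab21 fold did not show a change that passed the test. Of 10 such genes 8 were tested and 0 called by limma, 1 of them (Mb21d2) with an unadjusted p under 0.05, with a median log2 fold change of -0.046. Mab21l3, a relative by name, was at 1.30 and 1.05 FPKM without Dox and at 0.90 and 1.33 FPKM with it (adjusted p = 0.898 in limma), so its groups overlapped. Mab21l4 was at 0.12 FPKM or less in every library. The largest difference was that of Mb21d2, with 13.5 ± 0.276 FPKM without Dox and 16.9 ± 0.686 FPKM with it (SD over n = 2, log2 difference 0.31, adjusted p = 0.0799 in limma). Mief1, which encodes a mitochondrial fission receptor, was at 15.6 ± 0.566 and 14.7 ± 1.80 FPKM (adjusted p = 0.688 in limma).

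**Figure D2:**
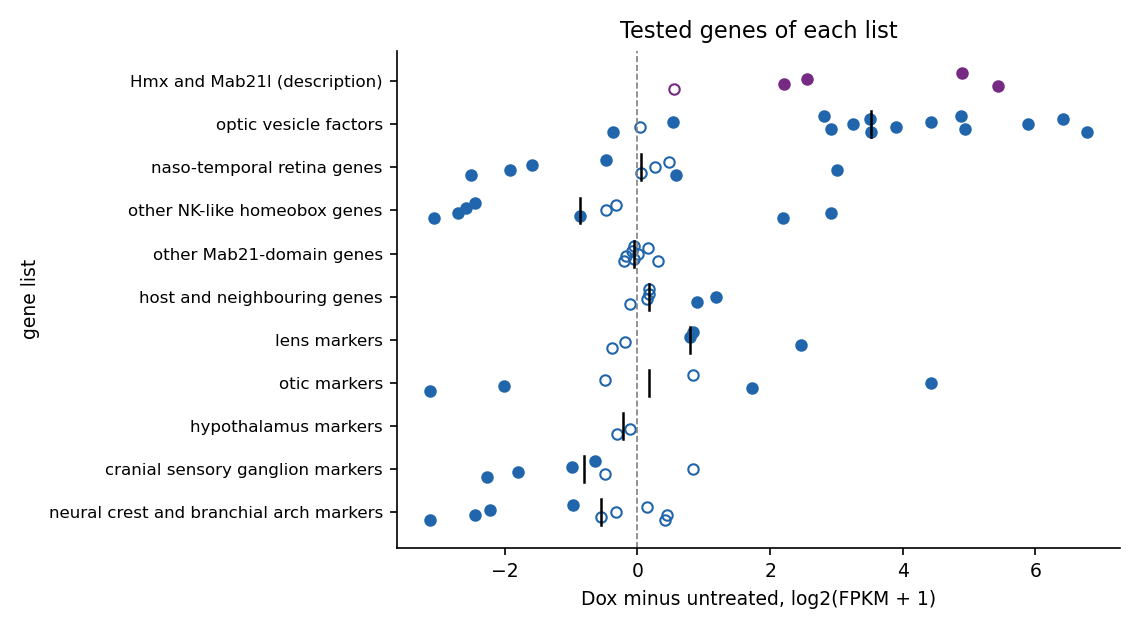
Difference between Dox and untreated libraries on the log2(FPKM + 1) scale for the 5 members (top, purple) and for the tested genes of each list. Among the members the open circle is Hmx2, which was under the minimum level for the fit. In the lists, filled circles are genes called by limma and black ticks are list medians. Optic vesicle factors centre at 3.5 and the other Mab21-domain genes at -0.046, while NK-like homeobox genes lie on both sides of 0.

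The Mab21l genes lie inside larger genes, in the opposite orientation. Mab21l1 lies within Nbea (chr3:55625195-56183701), which encodes neurobeachin, a scaffold of neuronal membrane traffic. Mab21l2 lies within its paralogue Lrba (chr3:86224680-86782692), which regulates the recycling of immune receptors. Both host genes were called higher with Dox. Nbea was at 4.48 and 3.93 FPKM without Dox and at 10.12 and 11.62 FPKM with it, differing by 1.19 in log2 with an SE of 0.115 (limma, adjusted p = 0.00298). Lrba was at 6.16 and 5.97 FPKM without Dox and at 12.15 and 12.17 FPKM with it, differing by 0.90 in log2 with an SE of 0.0861 (limma, adjusted p = 0.00285). The groups did not overlap for either gene, and both stayed called in all 14 alternative fits.

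The exons of host and guest overlap in the annotation. Exons of Nbea cover 981 of the 2492 exonic bases of Mab21l1 (39.4%), and exons of Lrba cover 1097 of the 3049 exonic bases of Mab21l2 (36.0%), in each case on the other strand. If counting ignored strand, fragments of guest and host cannot be told apart over these bases. The fold of the guests was larger, at 37.1 for Mab21l1 beside 2.59 for Nbea and 6.28 for Mab21l2 beside 2.00 for Lrba. A gene-level table gives no value for the hosts without the overlapped exons.

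**Figure D3:**
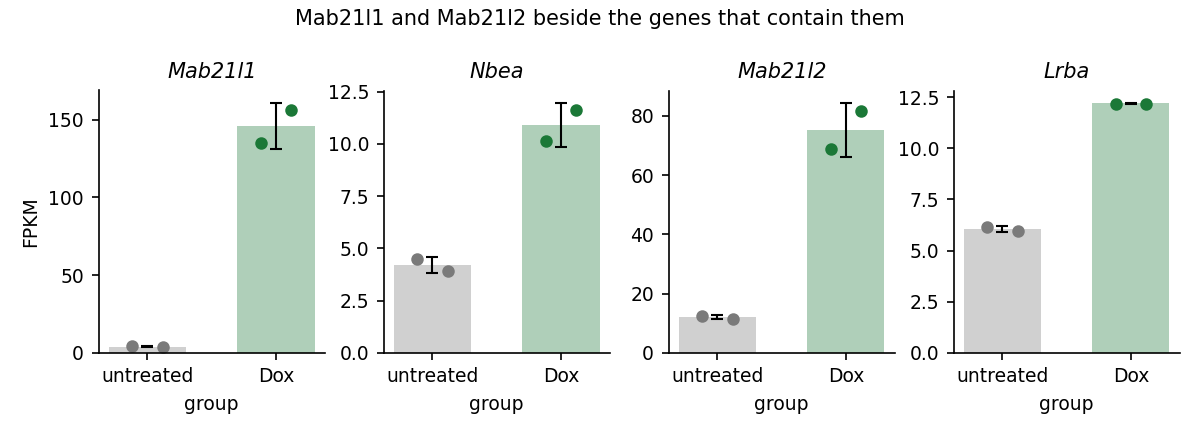
FPKM of Mab21l1, Nbea, Mab21l2 and Lrba in the untreated (grey) and Dox (green) libraries, each panel with its own axis from 0, bars for the means, whiskers for the SD (n = 2) and points for the libraries. Guest and host genes were all higher with Dox, from 3.92 to 146 FPKM for Mab21l1 and from 4.21 to 10.9 FPKM for Nbea.

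Hmx1 also has an overlapping entry. 4930442P19Rik, an unverified transcript on the opposite strand, shares 175 of the 1588 exonic bases of Hmx1 and was at 0 and 0.06 FPKM without Dox and at 3.99 and 5.70 FPKM with it. Of the genes beside the Hmx loci listed for comparison (Bub3, Acadsb and Cpz), 0 were called by limma, and 0 had an unadjusted p under 0.05. Bub3, a mitotic checkpoint gene 2.21 kb from Hmx2, was at 90.1 ± 1.64 FPKM without Dox and 99.8 ± 4.71 FPKM with it (SD over n = 2, limma adjusted p = 0.267). Cpz, 102 kb from Hmx1, was at 1.19 ± 0.0778 and 1.48 ± 0.0566 FPKM (adjusted p = 0.472 in limma).

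The starts of the members were compared because the genes were higher in the same libraries, Hmx2 at a low level throughout. RefSeq promoter windows (GRCm38.p6, 250 bases before to 50 after a start) were found for 4 of the 5 members, Hmx2 with 2 starts. The stretches below lie before the first transcribed base of the gene's RefSeq and coding GENCODE transcripts, read on the gene's strand, with matches to TATAAA in capitals. That of Mab21l2 lies inside the gene's annotated span, since a further GENCODE transcript of it, of 2580 bases and typed as a processed pseudogene, starts upstream and covers the stretch. They are shown because 1 is rich in G and C and the other 2 hold that element.
Hmx1, chr5:35388611-35388779, plus strand: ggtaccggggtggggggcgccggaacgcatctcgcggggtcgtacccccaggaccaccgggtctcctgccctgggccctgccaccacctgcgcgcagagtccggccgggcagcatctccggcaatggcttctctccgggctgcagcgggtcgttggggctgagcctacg
Hmx2, chr7:131548507-131548756, plus strand: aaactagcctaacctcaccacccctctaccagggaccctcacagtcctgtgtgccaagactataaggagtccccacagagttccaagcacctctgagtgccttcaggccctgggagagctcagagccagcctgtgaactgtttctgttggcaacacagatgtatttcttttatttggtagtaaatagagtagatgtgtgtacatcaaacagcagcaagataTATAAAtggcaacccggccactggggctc
Mab21l2, chr3:86548284-86548533, minus strand: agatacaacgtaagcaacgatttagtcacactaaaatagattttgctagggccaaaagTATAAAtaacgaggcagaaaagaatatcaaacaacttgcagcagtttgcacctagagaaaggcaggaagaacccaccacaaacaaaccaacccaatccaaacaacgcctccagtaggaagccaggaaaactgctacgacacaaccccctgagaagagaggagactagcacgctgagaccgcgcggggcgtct

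Over the whole 300-base windows, Hmx1 and Hmx3 have 75.7% and 78.0% G and C, above 96.7% and 98.1% of the 32851 windows in the table, whose median is 52.7%. The windows of the upstream start of Hmx2 and of Mab21l2 lie above 39.3% and 38.1% of all windows. TATAAA, on either strand, was found in the upstream window of Hmx2, beginning 29 bases before the start, and in that of Mab21l2, beginning 192 bases before it, and 13.6% of all windows hold it. The downstream window of Hmx2 (67.7% G and C) has no match. The homeodomain core TAATTA (5.29% of all windows), the NK-type core CAAGTG (13.6%) and TAATCC (7.06%), each searched on both strands, were found in none of the 5 windows. A match is a run of letters and not a shown site.

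Because members of both families are also known from the lens, inner ear, hypothalamus and cranial ganglia, markers of these tissues were examined beside them. Most lens markers were low: of 15 markers 5 were tested and 10 stayed under 1 FPKM in every library, with Cryba2 and Crybb1 listed at 0 throughout and Cryaa at 0.06 FPKM or less. Of the 5, 3 rose: Maf, a transcription factor gene also used outside the lens, rose by 2.46 in log2 (limma, adjusted p = 3.41e-04), while Prox1 (0.83) and Mip (0.79) lost the call when any 1 library was left out. In each fit that left out 1 library, 1 lens marker was called. Foxe3, the lens forkhead gene, was at 7.83 and 7.94 FPKM without Dox and at 7.47 and 6.13 FPKM with it (adjusted p = 0.387 in limma). The summed level of the list was 23.9 to 25.2 FPKM without Dox and 43.1 to 44.6 FPKM with it. Most of this rise lay in Maf, at 3.34 and 3.21 FPKM without Dox and 20.15 and 25.15 FPKM with it.

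Of 12 otic markers 6 were tested, of which 2 rose and 2 fell. The sum of the list was 23.8 to 24.7 FPKM without Dox and 31.3 to 40.5 FPKM with it. Pax2 alone, at 20.56 and 30.37 FPKM with Dox, rose by more than the sum did. The other otic markers together were therefore lower with Dox. Pax2, shared with the optic stalk, rose from 0.210 ± 0.0141 to 25.5 ± 6.94 FPKM (SD, n = 2 each), and Foxi3, a placode gene, from 0.13 and 0 to 2.34 and 2.67 FPKM. Sox10, also listed as a neural crest marker, fell from 12.79 and 13.35 to 0.82 and 0.43 FPKM. Lmx1a fell from 5.36 in both untreated libraries to 0.49 and 0.68 FPKM with Dox. The otoconial gene Oc90 was at 0.40 FPKM or less, Pax8 at 0.15 FPKM or less and Otol1 at 0.

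Of 12 hypothalamus markers 2 were tested and 0 called by limma, 1 of them (Pomc) with an unadjusted p under 0.05, and 10 stayed under 1 FPKM in every library. Fezf1 was at 21.8 ± 0.339 and 20.1 ± 0.757 FPKM (SD over n = 2, limma adjusted p = 0.417). Nkx2-1, which defines the ventral hypothalamus, was at 0.03 FPKM or less, and Hcrt and Gsx1 were listed at 0 in all libraries. The sum was 25.9 to 26.6 FPKM without Dox and 22.8 to 24.3 FPKM with it.

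Several markers of the cranial sensory ganglia and of the neural crest fell with Dox. Of 11 ganglion markers, 6 had enough signal to be tested, of which 4 fell and none rose, and the sum was 32.0 FPKM in both untreated libraries and 13.8 to 14.7 FPKM with Dox. Pou4f1, a sensory neuron factor, fell from 9.46 ± 0.262 to 1.18 ± 0.170 FPKM (SD over n = 2, limma adjusted p = 3.37e-04), and Neurog1 from 2.70 and 3.08 to 0.04 and 0.19 FPKM. The neurotrophin receptor gene Ntrk3 fell by 0.98 on the log2 scale, and Ntrk2 by 0.64, a call lost when any 1 library was left out. Of 12 neural crest and branchial arch markers 9 were tested, of which 4 fell and none rose, and the sum was 40.3 to 43.0 FPKM without Dox and 14.3 to 17.4 FPKM with it. Sox10, which marks migrating crest, fell from 13.1 ± 0.396 to 0.625 ± 0.276 FPKM, and Tfap2b from 8.40 ± 0.622 to 0.720 ± 0.184 FPKM (adjusted p = 2.69e-04 and 4.15e-04 in limma). Foxd3, an early crest factor, fell by 2.23 and Ets1 by 0.98, the latter lost when any 1 library was left out. Without untreated replicate 2, 2 of the ganglion markers were called. The part of these marker shifts in the values of the members was not tested.

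**Figure D4:**
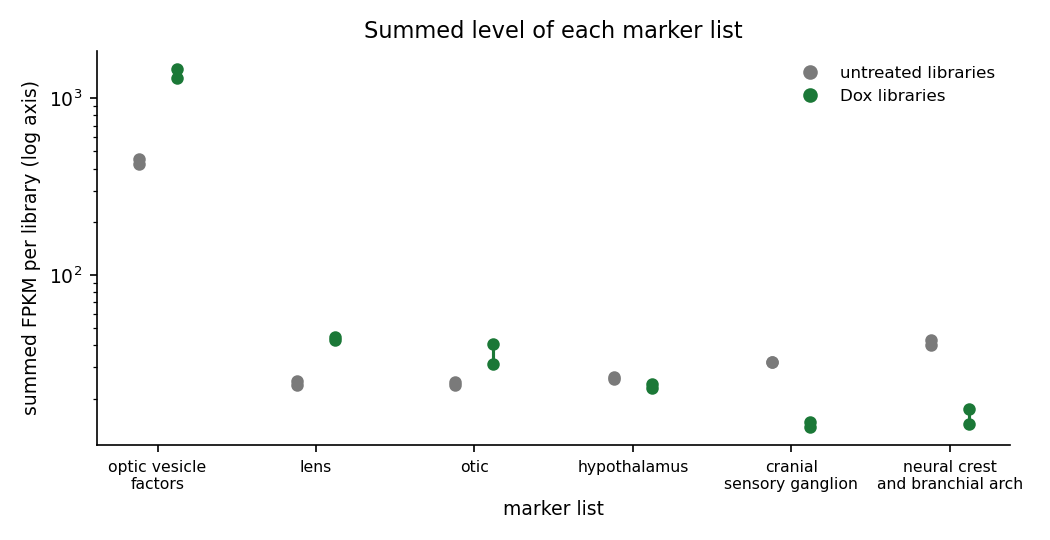
Summed FPKM (log axis) of 6 marker lists in each untreated (grey) and Dox (green) library. Optic vesicle factors summed to 426 to 455 FPKM without Dox and 1300 to 1470 FPKM with it, while ganglion and neural crest lists were lower with Dox.

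The genes most like each member across the 4 libraries were found by the distance between log2(FPKM + 1) values centred on each gene's mean, which reflects the size of the difference and the replicate spread and says nothing of shared function. The nearest to Mab21l1 was Shisa2 (distance 0.0936), an inhibitor of Wnt and FGF receptor maturation, at 7.06 and 5.79 FPKM without Dox and 191.62 and 227.17 FPKM with it. Tbx3 (0.211) and the Wnt receptor gene Fzd5 (0.243) were also among its 4 nearest. The 4 nearest to Hmx1 included Tbx2 (0.482), Tbx3 (0.560) and Shisa2 (0.621), so Tbx3 and Shisa2 stood near both Hmx1 and Mab21l1.

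Mab21l2 and Hmx3 had other neighbours. The nearest to Mab21l2 were Pkdcc (distance 0.0697), Id1 (0.0724), Lpar1 (0.105) and Maf (0.110). Id1, a BMP-responsive inhibitor of bHLH factors, was at 39.09 and 36.41 FPKM without Dox and at 215.00 and 237.46 FPKM with it. The nearest to Hmx3 were Myc (0.0383), Smad9 (0.0558), Gnai1 (0.0963) and Fam124a (0.113). Smad9, which encodes a transducer of BMP signals, was at 0.11 FPKM in both untreated libraries and at 3.54 and 4.61 FPKM with Dox, close to Hmx3 in level as well as in difference. Hmx2 was too low for such a comparison.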

How the data were processed

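Poly(A) RNA of 2 untreated and 2 Dox libraries was sequenced as paired 150-base reads. The authors deposited FPKM values per gene and library, rounded to 2 decimals. The submitters' processing notes name STAR, Cuffdiff and mm10, without role or version. Members and lists were chosen with earlier results of these data known.

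Values were taken as log2(FPKM + 1). The 13931 genes that averaged 1 FPKM or more were fitted with limma 3.58.1 in R 4.3.3 (intensity trend, two-sided, Benjamini-Hochberg over all tested genes, threshold 0.05), after a test on simulated data. Named were the members, the 4 nearest genes by profile for each member with a mean of at least 1 FPKM, and per list up to 4 called genes of largest change, up to 2 uncalled genes of highest level, and markers at or near 0. Otx2, Sox2, Efna2, Efna5, Msx2, Barhl1, Emx1, Mab21l3, Mab21l4, Cpz and genes taken by position fall outside this rule and were named after their values were seen. Some genes picked by the rule are not reported here, but they stay in the tests, counts and plots.

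GENCODE M21 (GRCm38, the mm10 assembly) gave positions and shared exons, and RefSeq the promoters. Depth was fitted from single-transcript genes of 450 to 1200 bases under 0.5 FPKM, with a length offset of 240 bases. Within 0.15 of a fragment, 87.2% to 88.2% of these values came out whole, against 30% by chance. Fragment numbers derived from it are estimates. With 2 libraries a group, p-values rest on the variance shared across genes. Alternatives were pseudocounts of 0.1 and 5, no filter or one of 5 FPKM, rescaling to a common sum, other normalizations, eBayes without the trend or robust, the replicate block and each library left out.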

Additional observations from a re-analysis of the deposited data

How the results depend on the processing

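The log2 differences of the members stayed positive in every alternative computed for them (Hmx2 has no value under quantile normalization, and the eBayes settings give the members no value of their own). The filters and the replicate block cannot change a difference of group means, so they are no check here. The differences depended on the pseudocount by construction. With a pseudocount of 0.1 they were 7.81 for Hmx1, 1.72 for Hmx2, 4.06 for Hmx3 and 5.18 for Mab21l1, and with 5 they were 3.34, 0.14, 0.86 and 4.08, and 2.24 for Mab21l2. Leaving out 1 library gave 5.28 to 5.58 for Hmx1, 0.52 to 0.56 for Hmx2, 2.05 to 2.36 for Hmx3, 4.79 to 5.00 for Mab21l1 and 2.43 to 2.67 for Mab21l2.

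Over all genes 1297 were called, 745 without a filter on low values and 821 with a mean of at least 5 FPKM. Leaving out 1 library gave 610 to 695 calls, with the lone library of a group assumed to vary like the other group. Under these fits 1 lens marker and 2 to 3 ganglion markers were called. Without a filter 1 lens marker and 1 hypothalamus marker were called. With a mean of at least 5 FPKM, which tests fewer genes, calls numbered 3 among NK-like homeobox genes, 1 among lens, 2 among otic, 2 among ganglion and 1 among neural crest markers. List medians changed sign for the naso-temporal genes (-0.207 at 5 FPKM, -0.0524 to 0.161 with 1 library left out, the lowest without Dox replicate 2), lens markers (-0.193 at 5 FPKM), Mab21-domain genes (0.0446 without Dox replicate 1) and otic markers (-1.23 without Dox replicate 2, -0.601 without Dox replicate 1, up to 0.276 with another library left out). The causes were not tested.

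Whether replicate numbers pair libraries is not stated (correlation of deviations -0.0435). With the replicate block 1134 genes were called, and Otx2, Sox2 and Efna2 lost their calls. At this depth the untreated Hmx levels rest on about 4 to 13 fragments per library on the longest transcripts.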

Other observations

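The genes around the members were also taken by position, a choice made after the data were seen. The 2 nearest protein-coding genes on each side of a member and those whose annotated span contains it came to 19 genes, of which 14 were tested, 3 were called higher and 1 lower. That is 28.6% beside 9.31% of all tested genes, in a set of 14 that includes both host genes. Besides Nbea and Lrba, Cd1d1, which encodes a lipid-presenting molecule 447 kb from Mab21l2, was called higher, at 2.92 and 4.56 FPKM without Dox and 6.99 and 8.01 FPKM with it (log2 difference 0.86, adjusted p = 0.0494 in limma). Fgfr2, an FGF receptor gene whose annotated span contains Hmx2 and Hmx3 on the other strand without shared exonic bases, fell from 57.8 ± 1.80 to 32.1 ± 2.06 FPKM (SD over n = 2, log2 difference -0.83, adjusted p = 0.00239 in limma). That annotated span, chr7:130162451-133123350, is wide and also contains Ikzf5, Acadsb, Bub3 and Gpr26. Around Hmx1, Lrpap1 was at 24.3 ± 0.311 and 28.9 ± 0.672 FPKM (adjusted p = 0.0995 in limma) and Trmt44 at 4.70 ± 0.0283 and 4.98 ± 0.0354 FPKM (adjusted p = 0.721 in limma). A second unverified entry inside the span of Hmx1, Gm43377, on the same strand, was listed at 0 without Dox and at 1.31 and 0.42 FPKM with it.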
